A study of Drosophila melanogaster with 3 samples.

Results

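The circadian clock genes of Drosophila melanogaster were examined for binding of the zinc finger protein pad. The 10 genes Clk, cyc, per, tim, vri, Pdp1, cwo, cry, sgg and dbt were chosen by symbol, out of 13945 protein-coding genes on the main chromosome arms. In the annotation 9 of them carry these symbols, and dbt is listed under its synonym dco. Binding had been profiled by ChIP-seq, in which DNA bound by a protein is recovered with an antibody and sequenced. The material was whole adult females, of unknown age, of a transgenic line that stably expresses pad fused at its C terminus to GFP, and the antibody was directed against GFP. There were 3 biological replicates of this 1 group, called replicates 1, 2 and 3 here, and the labels give no second genotype, treatment or time of day. The labels do not give the promoter that drives the fusion protein, the hour of collection, or whether the untagged copies of pad were present.

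In the fly clock the basic helix-loop-helix proteins CLK and CYC bind E-boxes and activate per and tim, whose products enter the nucleus and shut CLK and CYC off. In a second loop vri and Pdp1, also targets of CLK and CYC, encode a repressor and an activator of Clk. The protein cwo represses targets through E-boxes. The blue light receptor cry resets the cycle by way of tim, and the kinases sgg and dbt phosphorylate tim and per proteins. The clock runs in brain neurons, photoreceptors, fat body and other tissues. The pad protein (poils au dos) has been studied for its repression of achaete and scute, which specify sensory bristles. Since whole flies were used, a weak peak in many cells and a strong peak in few cells cannot be told apart.

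Each deposited peak has a summit, the position of its highest point, and a signal, the authors' own value of peak strength. The list of peaks that passed the irreproducible discovery rate (IDR), a test of agreement in rank between replicates, held 6659 summits on dm6, the Release 6 assembly. They are the strongest by signal of a list of 30000 peaks called on the pooled replicates, and each replicate has its own list of 30000. A rank of 1 is the strongest peak of a list. The lists hold no read counts, so the depth of the replicates is unknown.

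All 10 clock genes had an IDR summit in the gene or within 5 kb, against 57.9% of all coding genes. Together they held 41 summits in 34 separate regions. The strongest lay in the first intron of Clk, at rank 22 of the whole list. Next came a summit just upstream of Pdp1 at rank 63, a summit in an intron of dbt with a signal of 7157 and a summit just upstream of cry at rank 272. The leading summits of sgg, vri, tim, cyc, cwo and per followed between ranks 1103 and 4797. An IDR summit of the strongest 1000 was found for 4 clock genes, Clk, Pdp1, dbt and cry, against 15.0% of coding genes.

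**Figure D1:**
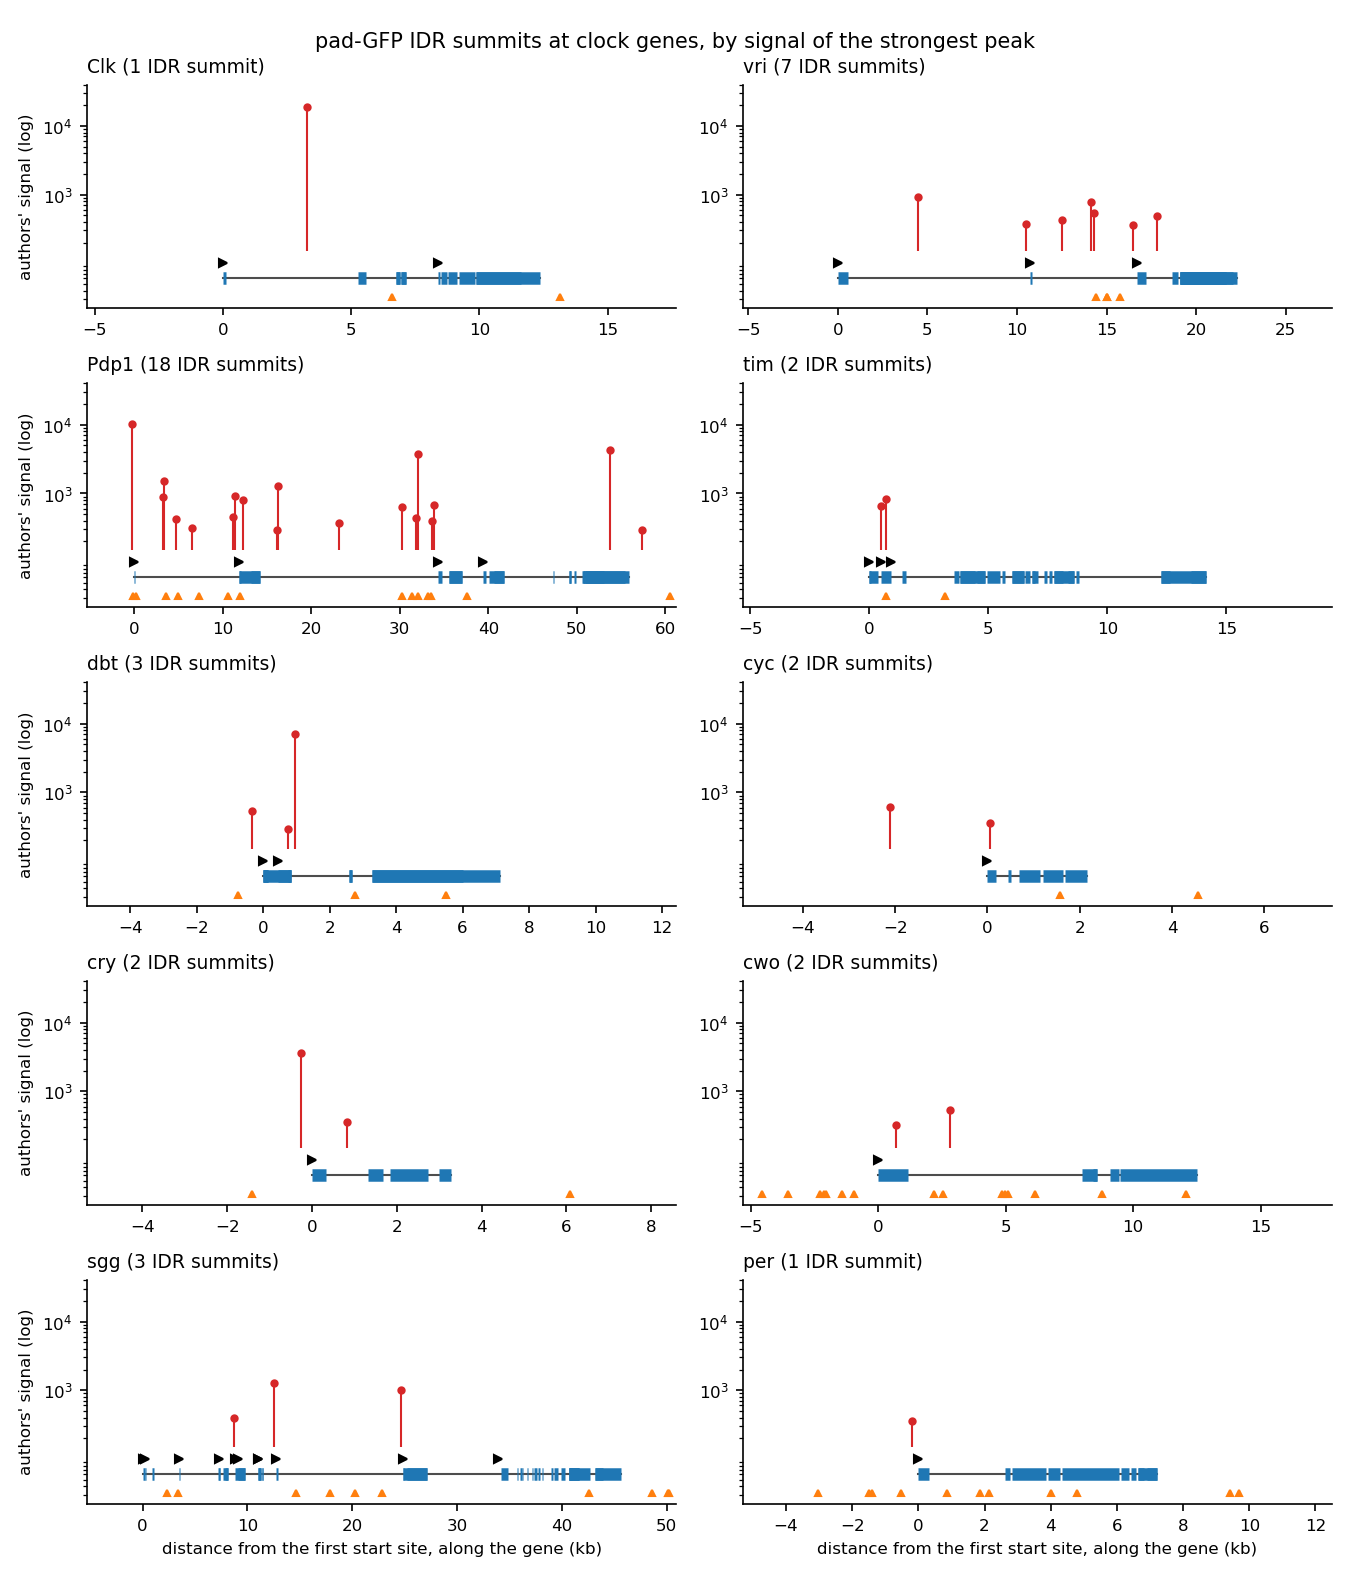
Maps of the 10 clock genes along their own strand, with the distance from the 5′-most start site in kb and the authors' signal of each IDR summit on a log axis (red). Black arrowheads are start sites, blue boxes exons of any transcript and orange triangles canonical E-boxes. Pdp1 holds 18 of the 41 summits, and Clk a single summit with a signal of 18815.

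The sequences under the leading summits show what lies at the strongest sites and at the 3 summits that share the word GAGCGAGA. Each runs 50 bp to either side of the summit in the RefSeq copy of dm6, written 5′ to 3′ along the strand of the gene and free of annotated UTR bases. Capitals mark matches, on either strand, to the words searched here, which were CACGTG (the canonical E-box), CAGCTG, TTATGTAA and TTACGTAA (forms of the site that VRI and PDP1 share), TATCGATA (the DRE), GAGAGAG, CAACACTG, AGGGGAAA and GAGCGAGA. The last 3 are words that earlier work on these data found at summits.
Clk, intron, chr3L:7772270-7772370, minus strand: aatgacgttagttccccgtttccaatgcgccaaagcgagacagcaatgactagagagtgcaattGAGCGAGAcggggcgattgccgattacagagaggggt
Pdp1, upstream, chr3L:7867589-7867689, minus strand: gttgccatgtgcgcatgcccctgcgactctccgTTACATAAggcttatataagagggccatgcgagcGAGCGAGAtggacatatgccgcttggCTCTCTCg
dbt, intron, chr3R:31060200-31060300, minus strand: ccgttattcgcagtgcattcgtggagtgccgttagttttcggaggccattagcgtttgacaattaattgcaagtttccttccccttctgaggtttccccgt
cry, upstream, chr3R:19211838-19211938, plus strand: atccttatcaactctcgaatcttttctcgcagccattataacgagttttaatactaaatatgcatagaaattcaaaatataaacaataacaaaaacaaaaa
sgg, upstream of sgg-RD, chrX:2658530-2658630, plus strand: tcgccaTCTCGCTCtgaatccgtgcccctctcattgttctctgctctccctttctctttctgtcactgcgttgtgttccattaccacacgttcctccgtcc

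The word GAGCGAGA stood at 3 of the 41 clock gene summits (7.32%, exact binomial 95% interval 1.54 to 19.9%), against 3.62% of all 6659 IDR summits. The 3 were the leading summits of Clk and Pdp1 and the second of sgg. The interval includes 3.62%. Since the word was taken from summits of these same data, its presence at strong summits is not an independent result. The Pdp1 window also held TTATGTAA, read as its reverse complement, which occurred at 0.781% of all IDR summits. The GA repeat GAGAGAG was found at 2 clock gene summits, in Pdp1 and sgg (4.88%), against 5.86% of all. None of the 41 windows held CAGCTG, TTACGTAA, TATCGATA, CAACACTG or AGGGGAAA, for which the exact interval reaches 8.60%. Among all IDR summits these words occurred at 5.99%, 0.105%, 2.21%, 2.91% and 2.94%. The clock gene windows had a median GC content of 44.6%, against 42.6% for all IDR summits, and the leading windows of Clk and cry had 52.5% and 25.7%. The intervals cover the counting of summits and not sequencing depth, and summits of the same gene are not independent.

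The activators differed widely. Clk (chr3L:7763233-7775603, minus strand) encodes the CLK activator and had a single IDR summit, at 7772320. It lay 3283 bp downstream of the start site of Clk-RA, Clk-RD and Clk-RF, within the first intron of Clk-RA, which is 5173 bp long. The peak spanned 852 bp, with a signal of 18815. It ranked 21, 23 and 28 in replicates 1, 2 and 3, a mean of 24.0 ± 3.61 (SD, n = 3), and the replicate summits lay 0, 0 and 9 bp from the IDR summit. The next peak of Clk in the pooled list did not pass IDR and ranked 7734, with a signal of 228. Neither start site of Clk had a summit within 1000 bp.

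Its partner cyc (chr3L:19813770-19815938, minus strand) is among the shorter clock genes, at 2169 bp. Its promoter had a summit 47 bp downstream of the start site, at IDR rank 4868 with a signal of 353. That peak ranked 8118, 4560 and 3662 in the replicates, and in replicate 1 the nearest summit was 147 bp away. The stronger summit near cyc, at rank 2723, lay 2117 bp upstream of the gene and 88 bp from the start site of its neighbour Fibp.

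**Figure D2:**
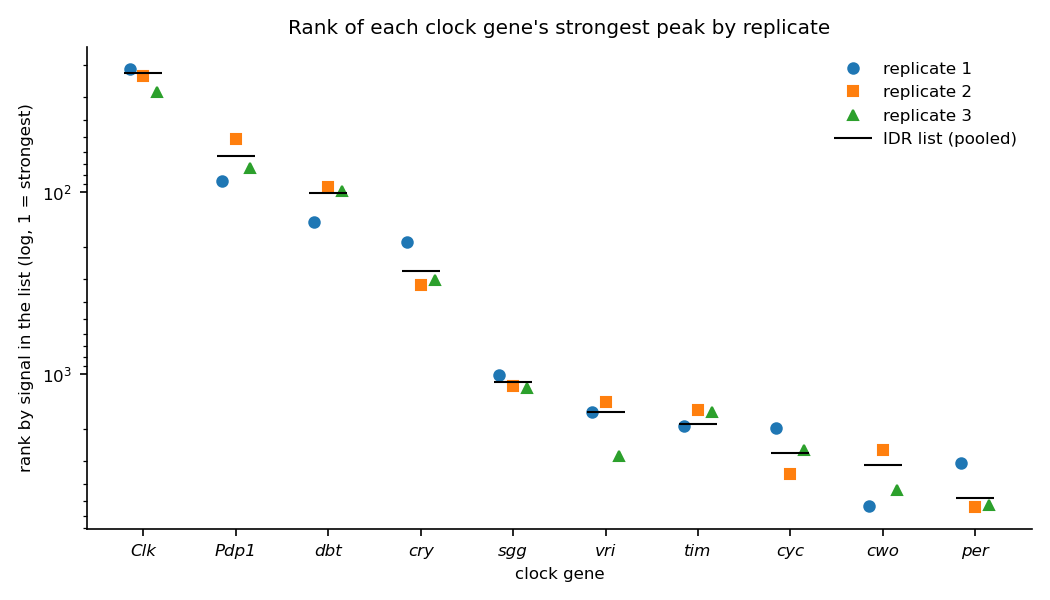
Rank of the strongest peak of each clock gene in the list of each replicate (symbols) and in the IDR list (black lines), on a log axis with the strongest peak at the top. The ranks of Clk, Pdp1, dbt, cry and sgg occupy separate ranges, while those of the other genes overlap with a neighbour or lie close together.

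The leading summits of the repressor genes per, tim and cwo had signals of 359, 831 and 528, and that of tim was stronger than both summits of cyc. At per (chrX:2685580-2692780, plus strand), whose product closes the main feedback loop, the 1 summit lay 189 bp upstream of the start site shared by per-RA and per-RB. It had a signal of 359 and ranked 3084, 5380 and 5206 in replicates 1, 2 and 3, a mean of 4557 ± 1278 (SD, n = 3). The replicate summits were 129, 36 and 31 bp away from it. The gene per starts 6026 bp beyond the end of sgg, so that this summit lies 5838 bp from sgg and was not counted for it.

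The partner of per, tim (chr2L:3493986-3508119, minus strand), had 2 summits in a single peak of 587 bp. The stronger, at 3507430, lay 212 bp upstream of the start site used by 6 tim transcripts and 174 bp downstream of the start site of tim-RO. It had a signal of 831. The second, with a signal of 652, lay 35 bp upstream of the start of tim-RO. The peak ranked 1926, 1583 and 1609 in the replicates, a mean of 1706 ± 191 (SD, n = 3). No summit lay within 250 bp of the 5′-most start site, that of tim-RM, tim-RP and tim-RR.

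The leading tim summit was the member of the 41 closest to a canonical E-box, which stood 10 bp away and 202 bp upstream of the start site of the 6 transcripts. The site is shown with 12 bases on either side, with the E-box in capitals. It falls in annotated 5′ UTR sequence of tim-RO.
tim E-box, chr2L:3507405-3507434, minus strand: acgttgtgattaCACGTGagccgatttccc

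The E-box repressor gene cwo (chr3R:10388258-10400752, plus strand) had 2 summits, neither within 250 bp of its start site. The stronger lay in its first intron, 2822 bp downstream of the start, with a signal of 528. It ranked 5291, 2612 and 4306 in the replicates, a mean of 4070 ± 1355 (SD, n = 3). The other lay in 5′ UTR sequence, 708 bp downstream of the start, with a signal of 326 and ranks of 9175, 4579 and 7021.

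The genes of the second loop held the most summits. Pdp1 (chr3L:7811458-7867369, minus strand), which encodes a bZIP activator of Clk, had 18 IDR summits in 14 regions. Only 7 of all coding genes, Pdp1 included, had as many (0.0502%). The strongest lay 270 bp upstream of the start site of Pdp1-RF and Pdp1-RO, with a signal of 10297 and ranks of 87, 51 and 74 in replicates 1, 2 and 3 (mean 70.7 ± 18.2, SD, n = 3). The next was in 3′ UTR sequence near the other end of the gene, at 7813641, with a signal of 4295 and ranks of 228, 259 and 159. After it came an intronic summit at 7835323, 2250 bp upstream of the start of Pdp1-RD and Pdp1-RJ, with a signal of 3710 and ranks of 481, 251 and 222.

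The other 15 summits near Pdp1 had signals from 294 to 1530. Of all 18 summits 14 were classed as intronic, each in the first intron of Pdp1-RF, which is 49017 bp long and contains the other start sites. Summits stood upstream of 3 of the 4 start sites, at distances of 270, 407 and 460 bp, while the start of Pdp1-RC and Pdp1-RL had none nearer than 5515 bp. One summit in the flank, at rank 5862, was 217 bp from the start site of CG32369. In the strongest 6659 peaks of each replicate list, 15, 18 and 20 summits lay in or within 5 kb of Pdp1.

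The gene vri (chr2L:5288944-5311223, plus strand) encodes a bZIP repressor of Clk and had 7 summits in 6 regions, all within the gene. As many or more were found at 1.52% of coding genes. The strongest lay 4457 bp downstream of the start of vri-RE, in its first intron of 18055 bp, with a signal of 931. That peak ranked 1621, 1424 and 2825 in the replicates, a mean of 1957 ± 758 (SD, n = 3). Start sites within the same intron had summits 202 bp upstream (vri-RC) and 225 bp upstream (vri-RA, vri-RD and vri-RF), with signals of 374 and 361. The 5′-most start site, that of vri-RE, had none nearer than its leading intronic summit.

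The light receptor gene cry (chr3R:19212154-19215442, plus strand) had its leading summit 266 bp upstream of its start site, which the annotation also gives as the start of lncRNA:CR46393. The peak was 882 bp wide with a signal of 3635, and ranked 187, 324 and 304 in replicates 1, 2 and 3 (mean 272 ± 74.0, SD, n = 3). A second summit in the first intron, 826 bp downstream of the start, had a signal of 361 and ranks of 7902, 4016 and 4448.

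The kinase genes were bound in different ways. The casein kinase gene dbt (chr3R:31054085-31061210, minus strand, dco in the annotation) had its leading summit in intron sequence, 523 bp downstream of the start of dco-RE, in a peak of 1621 bp. With a signal of 7157 it ranked 146, 94 and 98 in the replicates, a mean of 113 ± 28.9 (SD, n = 3), and the replicate summits were within 4, 4 and 14 bp of it. A separate summit 323 bp upstream of the start site of the other 4 transcripts had a signal of 535 and ranks of 1320, 6091 and 5066, a wide spread. The remaining summit, with a signal of 292, lay in the same peak as the leading summit.

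The glycogen synthase kinase 3 gene sgg (chrX:2633952-2679553, plus strand) has 11 annotated start sites, and each of its 3 summits lay upstream of an internal one. The distances were 152 bp to the start of sgg-RQ, 186 bp to that of sgg-RD and sgg-RP, and 127 bp to that of sgg-RR, with signals of 1259, 1015 and 390. The strongest ranked 1005, 1165 and 1184 in the replicates (mean 1118 ± 98.3, SD, n = 3), and the weakest 11302, 3336 and 4664. The 5′-most start site, shared by 6 transcripts, had its nearest summit 8675 bp away.

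By the rank of their leading peaks the genes thus fell in the order Clk, Pdp1, dbt, cry, sgg, vri, tim, cyc, cwo and per. The place of cyc rests on the summit by the start of Fibp. Its own promoter summit ranked 4868, below that of per at 4797. For the first 5 the ranges over the replicates did not overlap with those of their neighbours in this order. The ranges of vri and tim overlapped, as did those of vri and cyc, of cyc and cwo, and of cwo and per, while those of tim and cyc did not. The median over the 10 genes of the best pooled rank was 1358.5, against 3669 over the 11758 coding genes with a pooled summit in reach and 2651 over those of at least 10 kb. In replicates 1, 2 and 3 this median was 1308, 1294.5 and 1396.5 for the clock genes, against 3823, 3539 and 3965 for coding genes.

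Clock genes are long, with a median length of 12433 bp against 2166 bp for coding genes, and longer genes have more room for a summit. Of the clock genes 6 have at least 10 kb, and all 6 had a summit in reach, against 71.3% of coding genes of that length. The other 4 had one too, against 55.7% of shorter coding genes. Within the gene itself 9 of the 10 had a summit, all but per, against 16.1% of coding genes. That count also depends on gene length, and its share among coding genes of at least 10 kb is not given. The clock genes had 1.45 summits per 10 kb of gene and flanks together, against 0.801 for coding genes and 0.554 for coding genes of at least 10 kb. This density rests in part on Pdp1, without which the other 9 genes had 1.06 per 10 kb. The median number of summits was 2 per clock gene, and 2.5 in the 6 long ones, against 1 for coding genes and 2 for coding genes of at least 10 kb.

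**Figure D3:**
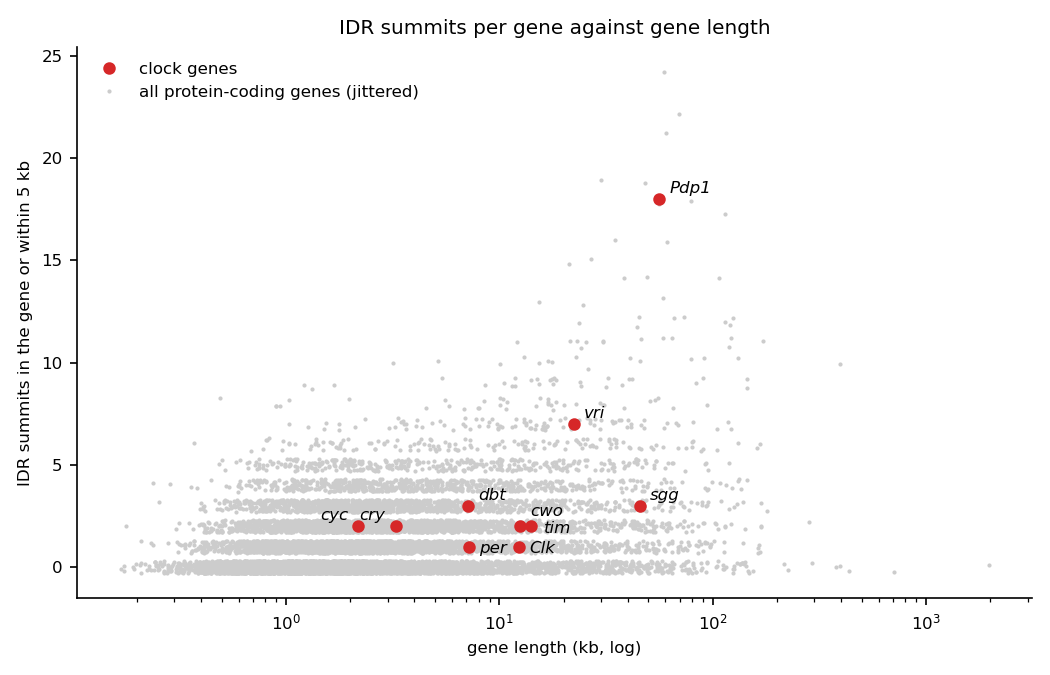
Number of IDR summits in each gene or within 5 kb against gene length in kb on a log axis, for the clock genes (red) and all coding genes (grey, jittered vertically). Pdp1 and vri, with 18 and 7 summits, lie high among genes of their length, and the other 8 clock genes have 1 to 3.

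Promoters, taken as 250 bp to either side of a start site of the gene itself, held a summit in 5 clock genes, cyc, per, tim, vri and sgg, against 24.4% of coding genes. Among the 6 long clock genes it was 3, tim, vri and sgg, against 33.6% of long coding genes. Of the 29 start sites of the clock genes 9 had a summit this near. The 24.4% is a share of genes, and the share of all start sites is not given. A gene with several start sites has more chances to be counted. The genes tim, vri and sgg were counted only through start sites other than their 5′-most one. The leading summits of cry and Pdp1, at 266 and 270 bp, and the upstream summit of dbt, at 323 bp, fell just outside the limit, and summits of tim and vri, at 212 and 225 bp, just inside. Within 1000 bp of a start site 9 clock genes had a summit, all but Clk, against 33.5% of coding genes. The promoter count therefore depends on the distance chosen.

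In the whole set of 41 summits, 23 were intronic (56.1%), against 33.0% of all IDR summits. A further 11 lay within 250 bp of a start site of any gene (26.8%), against 49.3% of all IDR summits. Of these 11, 9 were at start sites of the clock genes themselves, and 7 of the 9 were upstream of the nearest. Another 3 summits were intergenic, 3 in 5′ UTR and 1 in 3′ UTR sequence, and none in coding exons. Of the 23 intronic summits 22 lay in first introns, 14 of them in Pdp1, by the longest transcript with an intron there. The exception, in dbt, lies in the second intron of dco-RD but also in the first of dco-RA. The share of first introns among all intronic IDR summits is not given. Without Pdp1 9 of 23 summits were intronic (39.1%, against 33.0%) and 10 were promoter summits (43.5%, against 49.3%). Most of the difference from all IDR summits thus rests on that gene.

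**Figure D4:**
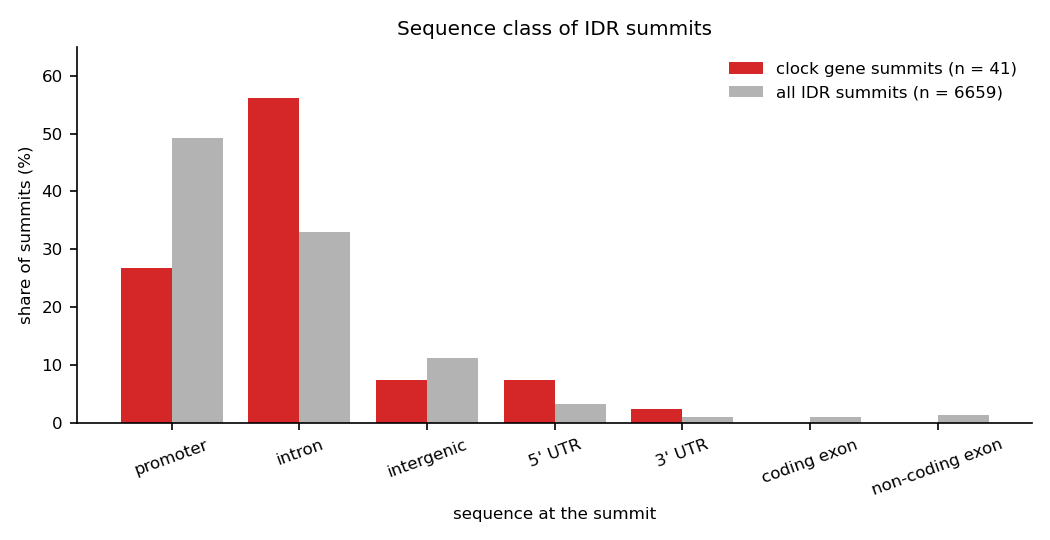
Share of summits by the sequence in which they lie, in percent, for the 41 clock gene summits (red) and all 6659 IDR summits (grey). Introns hold 56.1% of clock gene summits and promoters 26.8%, against 33.0% and 49.3% of all IDR summits. Without Pdp1 the clock gene shares were 39.1% and 43.5%.

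The replicates placed peaks at the same genes. In the strongest 6659 peaks of replicates 1, 2 and 3 all 10 clock genes had a summit in reach, against 58.8%, 57.1% and 56.8% of coding genes. The clock genes held 35, 43 and 46 such summits, a mean of 41.3 ± 5.69 (SD, n = 3). Promoter summits were found in 2 clock genes (tim and sgg) with replicate 1, in 5 with replicate 2 and in 6 with replicate 3, against 24.6%, 24.1% and 23.2% of coding genes. Replicate 2 gave the same 5 genes as the IDR list, and replicate 3 those and cry. The median distance from the 41 IDR summits to the nearest replicate summit was 27, 7 and 29 bp, with a largest distance of 202, 51 and 114 bp. Of the 41 summits 40 were matched by one of the top 10000 peaks in every replicate, where a match needs 50% of either peak to be covered. The exception was the sgg-RR summit. The IDR list was drawn from these replicates, so this agreement is partly built in. The share of all IDR summits matched in this way is not given, so nothing particular to clock genes can be read from it.

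Canonical E-boxes, the CLK and CYC site, were found within 250 bp of 9 of the 41 clock gene summits (22.0%), against 7.73% of all IDR summits. The median distance was 765 bp, against 2467 bp for all IDR summits. Pdp1 supplied 6 of the 9, tim 2 and vri 1, and without Pdp1 the number was 3 of 23. The 2 tim summits lie in 1 peak, 10 and 219 bp from the same E-box. Those 3 summits thus rest on 1 E-box at tim and 1 at vri. At Pdp1 E-boxes stood 118 bp from the leading summit, 61 bp from the intronic summit at 7835323 and 187 bp from that at 7863942. The clock gene loci held 2.30 E-boxes per 10 kb of gene and flanks, against 1.30 for coding genes, and 2.23 against 1.26 where overlapping loci were merged. Without cwo and per the other 8 clock genes had 1.61 per 10 kb. Of the 62 E-boxes in the 10 loci 8 had an IDR summit within 250 bp, with no share of all E-boxes given. The 15 E-boxes at cwo and the 11 at per, of which 3 also lie in the flank of sgg, included none. The nearest stood 263 bp from a summit at cwo and 338 bp at per. An E-box lay within the window of 50 bp to either side at 1 clock gene summit, that of tim (2.44%), against 1.32% of all IDR summits. A match is a run of letters and does not show that a protein was bound there.

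**Figure D5:**
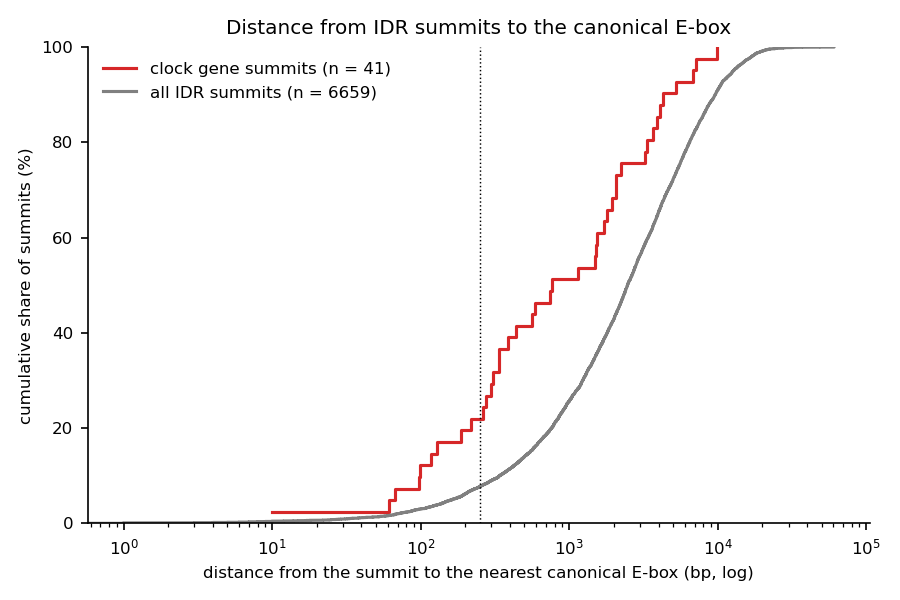
Cumulative share of summits, in percent, by the distance to the nearest canonical E-box in bp on a log axis, for clock gene summits (red) and all IDR summits (grey). The dotted line marks 250 bp, within which lie 22.0% of clock gene summits and 7.73% of all IDR summits.

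Further genes of the clock pathway were examined in 4 lists made by their known roles. Of all 37 genes 30 had an IDR summit in the gene or within 5 kb, and 18 one at their own promoter, against 57.9% and 24.4% of coding genes. These genes are also long, with a median length of 11508 bp. Among coding genes of at least 10 kb the shares were 71.3% and 33.6%. All 10 kinase, phosphatase and degradation genes had a summit in reach, and 7 a promoter summit. The strongest was at tws, a subunit of protein phosphatase 2A that acts on per protein, at rank 39 with a signal of 14226, in 5′ UTR sequence 602 bp from a start site. Cul3, a ubiquitin ligase scaffold, had a promoter summit at rank 713. The summit near jet, an F-box gene needed for resetting by light, ranked 749 but lay 72 bp from the start of its neighbour betaggt-I. The leading summits of nmo, CkIIalpha, CkIIbeta, slmb and mts also lay within 250 bp of, and nearest to, the start site of another gene.

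All 9 cofactor and RNA-level genes had a summit in reach, against 57.9% of coding genes and 71.3% of those of at least 10 kb. A promoter summit was found at 8 of them, against 24.4% and 33.6%. The strongest were at the start sites of brm, the ATPase of a chromatin remodelling complex (rank 363), nej, a histone acetyltransferase (rank 631), and tyf, which promotes translation of per (rank 854). The leading summits of lark, me31B, kis and Usp8 lay within 250 bp of, and nearest to, the start site of another gene. All 5 light input genes had a summit in reach but none at their own promoter, against the same shares of coding genes. The leading ones were an intronic summit of norpA, the phospholipase C of phototransduction, at rank 193, and summits near gl and nocte at ranks 264 and 739, which lay at the start sites of the neighbours WRNexo and PPP4R2r. The leading summits of qsm and Ir25a were also nearest to the start site of another gene.

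In the list of clock output, of 13 neuropeptide, channel and output genes 6 had a summit in reach (46.2%). Among all coding genes this share was 57.9%, and 71.3% among those of at least 10 kb. A promoter summit was found at 3 of the 13 (23.1%), against 24.4% and 33.6%. The strongest were at the start sites of CrebB, a CREB factor, and Pdfr, the receptor of the clock neuropeptide, at ranks 564 and 1773. The leading summit of Fmr1, which encodes an RNA-binding regulator of translation, ranked 3295 and was intergenic, with the start of CAH7 nearest to it at 790 bp. The leading summits of unc79 and Dh31 lay within 250 bp of, and nearest to, the start site of another gene. Pdf, na, Dh44, to, e, slo and Nf1 had no IDR summit in reach, and the difference between the lists was not tested.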

How the data were processed

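Per the readme files deposited by the authors, peaks of the 3 replicates and of their pool were called against a control alignment and passed to IDR. The aligner and peak caller were not given in the sources used here. The signal values deposited by the authors have no stated scaling and were used to describe and rank peaks within a list. The −log10 q-values deposited by the authors were not used to select peaks. The dm3 lists were not used here.

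Gene models came from Ensembl release 115 and sequence from the RefSeq copy of the same Release 6 assembly, whose arms contain every dm6 peak. The clock genes and the other lists were chosen with earlier results of these data known, so no test was made over them. The text names all 10 clock genes, and for their summits in a flank the gene with the nearest start site. In each other list it names up to 3 genes with the strongest summit and those with none. It also names those whose leading summit was nearest to a start site of another gene. No comparison between groups exists, and counts are set beside the same count over 13945 coding genes. The labels call the replicates biological and say no more on whether flies were collected separately for each. Counting and overlap steps were checked on simulated peaks. Alternatives covered distances, lists, overlap, window width and left-out replicates. Tables were handled in Python 3.11.15 with pandas 2.3.3 and numpy 2.4.6, exact intervals came from scipy 1.17.1, and plots from matplotlib 3.10.9.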

Additional observations from a re-analysis of the deposited data

How the results depend on the processing

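Clock genes with an IDR summit in reach stayed between 8 and 10 under the alternatives tried, except with the 1000 strongest peaks, where 4 remained. Among coding genes 15.0% had a summit in reach with the 1000 strongest peaks, and 16.1% had one inside the gene. That share is not given at 1000 bp, at 10 kb or with the 3000 strongest peaks, so those counts have no background. The promoter count of 5 was the least stable. With the distance to a start site set to 100, 500 and 1000 bp it was 2, 8 and 9. It was 0 and 2 with the 1000 and 3000 strongest peaks, and 2 with replicate 1 alone. Among coding genes the share was 33.5% at 1000 bp and 24.6% with replicate 1. It is not given for the other distances and peak cuts, so those counts have no background. Leaving out a replicate gave 10 to 10 genes in reach, 5 to 5 with a promoter summit, 40 to 41 summits in reach and 40 to 41 found in the replicates kept. The IDR list was still the one made from all 3 replicates, so these counts do not show stability without a replicate. When a replicate summit had to lie within 50 bp among the top 10000, a rule added after seeing the data, 21 of the 41 summits were found in all 3. The same share of all IDR summits is not given. The median best rank was 1741 inside the genes alone and 1294.5 in replicate 2. Of the 37 other clock-related genes 15 had a summit inside the gene, against 16.1% of coding genes, whose median length is shorter. This alternative was also added after seeing the data. The causes were not tested. No paired analysis was possible because there is 1 group. Depth is unknown, so a gene without a summit cannot be called unbound.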
